A study of Mus musculus with 6 samples.

Results

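The genes followed here are 9 genes of the prostaglandin pathway, out of the 56884 features counted in each library. They are the cyclooxygenases Ptgs1 and Ptgs2, the terminal synthases Ptges, Ptgis and Ptgds, the inactivating dehydrogenase Hpgd, and the prostaglandin E2 receptors Ptger2, Ptger3 and Ptger4. They were found by symbol in all 6 libraries. Their unique molecular identifiers (UMIs, the molecules counted) were summed over the barcodes of each cell type of each library, and they were chosen by these sums in control and iPCKO, lung and cortex. All values of these genes are therefore a description with no test.

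The series holds single-cell transcriptomes of mouse lung at postnatal day (P) 21, depleted of CD45+ cells and erythrocytes. It also holds those of cerebral cortex at P12, dissected after removal of the meninges and freed of myelin debris. Control mice carried Bdnf lox/lox (lung), Hgf lox/lox (lung) or Nodal lox/lox (cortex) alleles, and the inducible pericyte knockouts, called Bdnf iPCKO, Hgf iPCKO and Nodal iPCKO, carried such alleles together with the Pdgfrb-CreERT2 transgene. The labels give tamoxifen for all 6 samples, 50 µg a day from P1 to P3. Each library pooled 2 mice, with 1 library per genotype, so no replicate spread exists, and every interval given is a 95% interval of counting error only. The transgene is driven by Pdgfrb, and the authors name the targeting of vascular smooth muscle cells as a limit, so deletion may reach beyond pericytes. They describe recombination as limited in cells low in PDGFRβ, the protein of that gene, such as fibroblasts. In their earlier work on lung, tamoxifen at P1 to P3 labelled no PDGFRα+ fibroblasts, bronchial smooth muscle cells or myofibroblasts.

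The libraries held 33889545 to 186701379 UMIs, and 2929 to 20108 barcodes of each could be assigned to 1 cell type by marker genes, none of them among the 9 genes. Cell types are called after those markers, as in venous-like. In the control libraries all markers of each type used here were over 2-fold above the other assigned cells, except 7 of 8 for lymphatic-like cells of the Hgf control. As the same markers made the assignment, this does not check the cell type names. The barcodes that 2 libraries share numbered 21 (17.8 expected from the numbers of barcodes) to 457 (457 expected). In each library 3.65% to 14.4% of the barcodes held markers of 2 types and were set aside. Levels are given as CPM, the UMIs of a gene per 1000000 UMIs of the same cell type and library. Nodal had 186 UMIs in control pericyte-like cells and 0 in those of the Nodal iPCKO. Hgf was at 138 CPM in control pericyte-like cells and at 19.4 CPM in those of the Hgf iPCKO (25 and 10 UMIs). Bdnf stood at 14.3 CPM in control pericyte-like cells and at 18.6 CPM in those of the library labelled Bdnf iPCKO (8 and 14 UMIs), while in smooth muscle-like cells it stood at 77.6 and 35.0 CPM. The authors report fewer Bdnf transcripts in mutant pericytes under their own assignment of cells. Which part of Bdnf the reads cover is not given in the sources used here, so the counts above do not check the label. Results from that library are given as those of the library labelled Bdnf iPCKO.

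Prostaglandins are made from arachidonic acid. Phospholipases free it from membranes, the cyclooxygenases PTGS1 and PTGS2 turn it into prostaglandin H2, and terminal synthases turn that into prostaglandin E2 (PTGES), prostacyclin (PTGIS) or prostaglandin D2 (PTGDS). Prostaglandins act close to where they are made: they are taken up by the transporter SLCO2A1 and inactivated by HPGD, and the lung is a main site of this clearance from the blood. PTGER2 and PTGER4 raise cyclic AMP in the cells that carry them, and PTGER3 mostly lowers it. Ptgs1 is commonly described as a constitutive gene and Ptgs2 as an immediate-early gene that rises quickly after stimulation.

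The promoters of the cyclooxygenase genes are shown because the 2 genes had opposite ratios in the Hgf lungs. The sequences run from 250 bases before to 50 bases after the start of the gene, 5′ to 3′, from RefSeq on GRCm38.p6, where 8 of the 9 genes had an entry. Capitals mark matches, on either strand, to TATAAA, the core TGACG of the cyclic AMP response element, the GC box GGGCGG, the E-box CACGTG or CCAAT. The Ptgs1 promoter (chr2:36230176-36230475, plus strand) held none of the 5, and the Ptgs2 promoter (chr1:150099781-150100080, plus strand) held a GC box, that core on the other strand and an E-box that overlaps it.
Ptgs1: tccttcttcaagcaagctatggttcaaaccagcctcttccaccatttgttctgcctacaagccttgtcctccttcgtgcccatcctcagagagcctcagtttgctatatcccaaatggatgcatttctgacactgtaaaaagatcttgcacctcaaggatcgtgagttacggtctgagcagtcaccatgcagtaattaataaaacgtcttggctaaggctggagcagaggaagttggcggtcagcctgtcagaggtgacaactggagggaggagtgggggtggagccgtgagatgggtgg
Ptgs2: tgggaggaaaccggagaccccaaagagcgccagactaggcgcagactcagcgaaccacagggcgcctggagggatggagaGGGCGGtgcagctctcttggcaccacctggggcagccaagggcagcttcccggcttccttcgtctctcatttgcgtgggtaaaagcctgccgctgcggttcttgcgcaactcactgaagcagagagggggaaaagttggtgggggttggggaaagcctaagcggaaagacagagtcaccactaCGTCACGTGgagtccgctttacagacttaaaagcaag
Of 32851 promoters of this length, 35.7% held the GC box, 20.8% the core TGACG, 7.15% the E-box, 37.4% CCAAT and 13.6% TATAAA. The Ptgs1 window had 6 CG dinucleotides and the Ptgs2 window 16, against a median of 7. A match is a run of letters and not a measured site. On GRCm39, the build of the counts, Ptgs1 lies at chr2:36120438-36142287 and Ptgs2 at chr1:149975194-149983978, both on the plus strand, with Ptgs2os on the strand opposite to Ptgs2. Ptges and Hpgd each overlap another annotated gene on their own strand (Gm13400 and Gm45540), but 0 to 0.0978% of their UMIs per library lay in entries that are not whole, the mark of a read split between genes.

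The 9 genes were highest in different cell types of the control lungs. Ptgs1 was highest in venous-like endothelial cells, at 466 CPM in the Bdnf control and 320 CPM in the Hgf control, with AT2-like cells (alveolar type 2, the surfactant-secreting cells) at 192 and 155 CPM. Ptgs2 was highest in mast- or basophil-like cells, at 1613 and 2107 CPM in 38 and 46 cells left after the depletion of CD45+ cells. Venous-like cells and club-like cells, the secretory cells of the airway, followed in opposite order: 809 and 224 CPM in the Bdnf control, 376 and 408 CPM in the Hgf control. Both cyclooxygenases thus stood high in venous-like cells of both controls, whereas in gCap-like cells (general capillary) Ptgs1 was at 79.3 and 66.2 CPM and Ptgs2 at 5.84 and 5.60 CPM.

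Ptgis and Ptges were highest in stromal types. Ptgis, the prostacyclin synthase, was highest in smooth muscle-like cells of the Bdnf control (724 CPM) and in matrix fibroblast-like cells of the Hgf control (591 CPM), with mesothelial-like cells of the Bdnf control at 595 CPM. In venous-like cells it was at 176 and 127 CPM and in gCap-like cells at 14 and 9.98 CPM. Ptges, the inducible prostaglandin E synthase, was highest in matrix fibroblast-like cells, at 36.1 and 85.1 CPM, and stood at 24.2 and 55.2 CPM in pericyte-like cells on 13.5 and 10 UMIs. In Bdnf control cells the next type, adventitial fibroblast-like, was at 23.6 CPM with an interval of 20.3 to 27.2 that lies inside that of pericyte-like cells. Ptgds was at or below 6.18 CPM in every cell type of the control lungs, with AT1-like and AT2-like cells highest.

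Hpgd, the gene of prostaglandin inactivation, was an endothelial gene in the lung. Venous-like cells held 1763 and 2479 CPM, gCap-like cells 1179 and 2014 CPM, and aCap-like cells (aerocytes, the gas-exchange capillary cells) 950 and 1416 CPM. A UMI of Hpgd was found in 85.2% and 87.1% of gCap-like cells, at median depths of 3687 and 1791 UMIs, and in 8.85% and 15.8% of club-like cells, whose median depths were 14654 and 9468.5 UMIs. After thinning to the smallest depth kept (1500 UMIs in the Bdnf lungs and 700 in the Hgf lungs), the shares were 69.6% and 67.2% against 2.32% and 3.19%. Lymphatic-like endothelial cells stood apart from the blood endothelium, at 21.7 and 27.2 CPM.

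The receptors were low. Ptger2 was highest in myofibroblast-like cells, at 48.8 and 52.5 CPM (177 and 11 UMIs). Ptger3 was highest in mast- or basophil-like cells, at 99.7 and 92.1 CPM (19.33 and 15.33 UMIs). Ptger4 was highest in mast- or basophil-like cells of the Bdnf control, at 41.2 CPM on 8 UMIs, and in arterial-like cells of the Hgf control, at 72.0 CPM on 64 UMIs. Of the 9 genes Ptger3 was the least bound to cell types: its highest level was 6.75 and 5.01 times the median over cell types, against 134 times for Ptger2 in the Bdnf control.

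**Figure D1:**
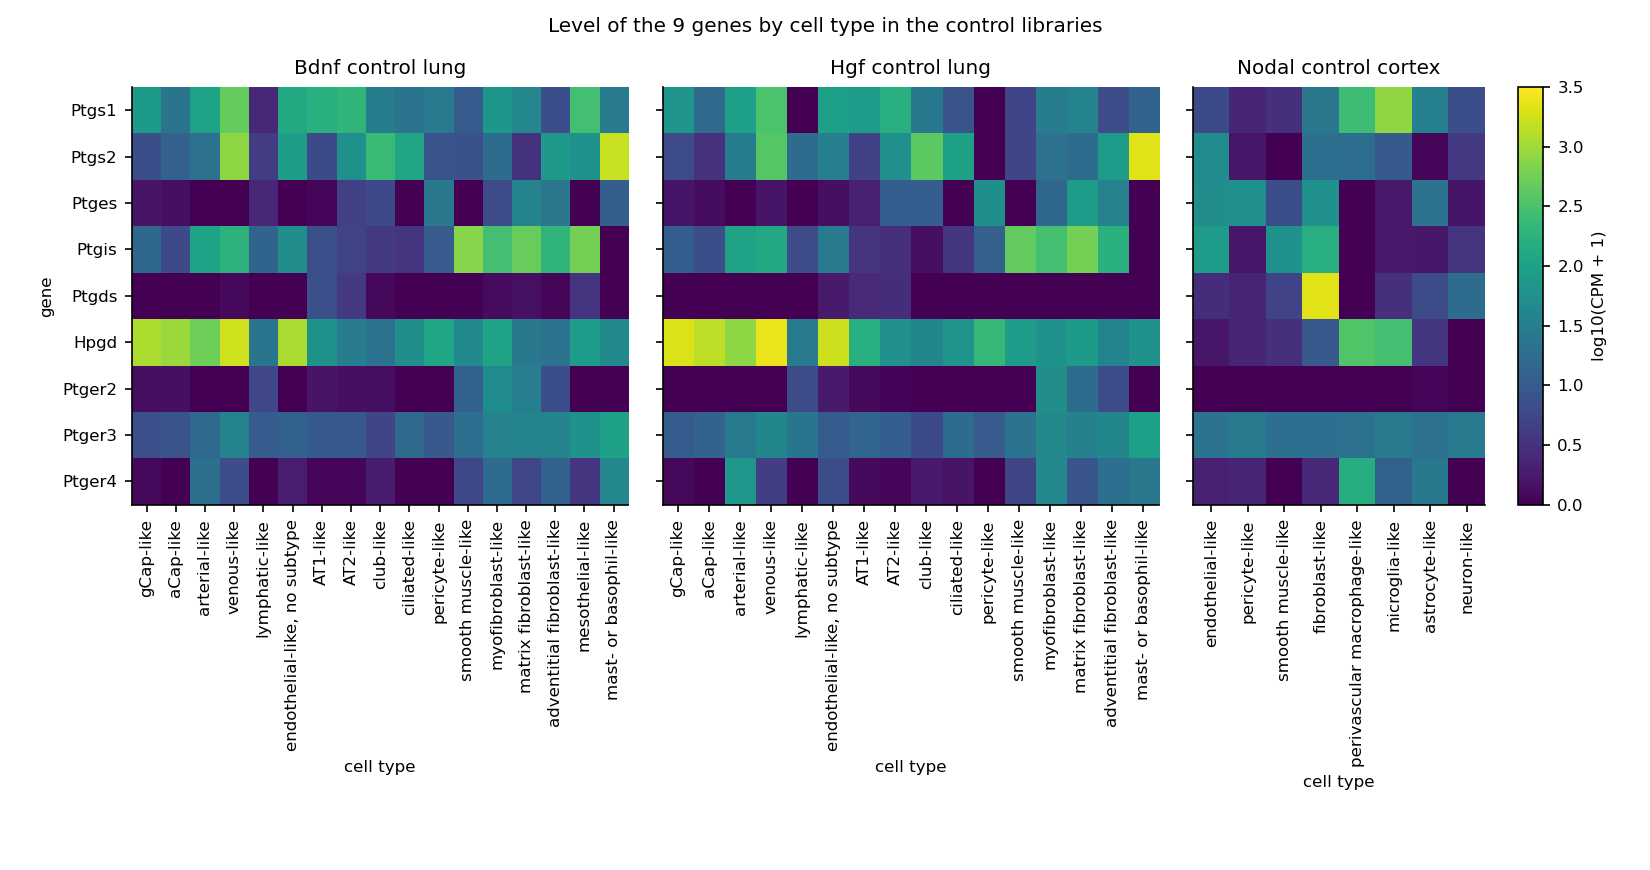
Level of the 9 genes (rows) in each cell type (columns) of the 3 control libraries, as log10(CPM + 1) from dark (0) to bright. In the lungs Hpgd is brightest in venous-like cells (1763 and 2479 CPM) and Ptgs2 in mast- or basophil-like cells (1613 and 2107 CPM), and in the cortex Ptgds in fibroblast-like cells (2175 CPM).

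Of the 3 pairs of control and iPCKO libraries, that of Hgf had the largest share of ratios of these genes past 2-fold, as it had for all genes. Ptgs1 was higher and Ptgs2 lower in the Hgf iPCKO library than in its control, in most cell types that could be compared. Ratios were taken where both libraries together held at least 20 UMIs, and past 2-fold means a log2 ratio beyond 1 in size. Of 73 ratios of the 9 genes, 19 (26.0%) were past 2-fold higher and 13 (17.8%) lower, where 7.41% of all gene and cell type pairs were higher and 7.69% lower. The median log2 ratio was 0.41 for the 9 genes and -0.02 for all.

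Ptgs1 was past 2-fold higher in 10 of 13 cell types, with a median log2 ratio of 2.11. In gCap-like cells it stood at 79.3 CPM in the Bdnf control, 138 CPM in the library labelled Bdnf iPCKO, 66.2 CPM in the Hgf control and 674 CPM in the Hgf iPCKO. The last of these 4 lungs lies apart from the other 3, on 3696 UMIs against 355 in its control (log2 ratio 3.35, 3.19 to 3.51). In aCap-like cells the 4 lungs, in the same order, held 20.9, 51.3, 15.0 and 319 CPM (4.41 in the Hgf pair, 3.99 to 4.86). The same order in venous-like cells gave 466, 402, 320 and 858 CPM, with a Hgf ratio of 1.42 (1.29 to 1.56). In the Hgf iPCKO gCap-like cells held the second highest level of the 16 types, after venous-like cells.

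More gCap-like cells held Ptgs1 in the Hgf iPCKO, at a like depth. The share with a UMI was 10.2% (9.07 to 11.5) of 2565 cells in the control and 61.0% (59.1 to 62.9) of 2573 cells in the iPCKO, at median depths of 1791 and 1692 UMIs. Thinned to 700 UMIs a cell, the shares were 4.21% and 34.9%. In ciliated-like cells, where Ptgs1 was low, they were 5.68% and 10.3%, or 0.433% and 1.61% thinned.

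Outside the endothelium Ptgs1 was higher in myofibroblast-like cells (28.6 to 299 CPM, log2 ratio 3.38), in matrix fibroblast-like cells (36.2 to 211 CPM, 2.54) and in AT1-like cells (82.6 to 249 CPM, 1.59). Pericyte-like cells of the Hgf control held 0 UMIs and those of the iPCKO 41, which is 4.82-fold higher with the 0 taken as 3 UMIs. AT2-like cells went the other way, from 155 to 111 CPM (-0.48, -0.57 to -0.40), and club-like cells held 25.4 and 26.0 CPM.

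Free RNA differed in the same direction. In barcodes under 100 UMIs, which hold no cell, Ptgs1 was at 88.4 CPM in the Hgf control and 253 CPM in the iPCKO. From the genes of other cell types found in each type, this free RNA could give 2.32% of the Ptgs1 level of gCap-like cells in the iPCKO, 4.23% in aCap-like and 3.36% in myofibroblast-like cells. It could give 43.6% of the level in AT1-like, 59.8% in pericyte-like and 80.2% in ciliated-like cells. In AT1-like cells the same estimate was above the whole Ptgs2 level, as given below, so it is too high for that type. With it subtracted, the log2 ratio was 3.40 in gCap-like and 4.62 in aCap-like cells. The estimate counts every UMI of those other genes as free RNA, those of doublets included, so it can be too high. A share above 100% exceeds the level itself, so the estimate is too high there, counting error aside.

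Ptgs2 had the opposite ratio. It was past 2-fold lower in 9 of 10 cell types, with a median log2 ratio of -1.59. In AT2-like cells the Bdnf control held 55.5 CPM, the library labelled Bdnf iPCKO 80.0 CPM, the Hgf control 56.0 CPM and the Hgf iPCKO 3.98 CPM. The 2 controls were alike and the Hgf iPCKO stood apart, with 61 UMIs against 1594 (-3.81, -4.21 to -3.44). The share of AT2-like cells with a UMI was 12.4% in the control and 1.21% in the iPCKO, at median depths of 4794 and 3652.5 UMIs, and 3.08% and 0.247% when thinned. In aCap-like cells, where Ptgs2 was at 2.19 and 1.31 CPM, 0.505% and 0.325% of cells held one.

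In venous-like cells Ptgs2 was at 809, 737, 376 and 116 CPM in the Bdnf control, the library labelled Bdnf iPCKO, the Hgf control and the Hgf iPCKO. The Hgf ratio was -1.70 (-1.90 to -1.49), and the controls themselves lay 1.11 apart on the log2 scale, the Hgf control being lower. Club-like cells held 224, 276, 408 and 164 CPM in that order (-1.31 in the Hgf pair), so that the iPCKO was below both controls. Mast- or basophil-like cells held 2107 and 380 CPM in the Hgf pair (-2.47, -2.97 to -2.01) on 46 and 21 cells. Adventitial fibroblast-like cells were the exception, with 82.9 and 66.7 CPM (-0.31, -0.85 to 0.19). Free RNA of Ptgs2 was at 90.5 CPM in the Hgf control and 55.5 CPM in the iPCKO. It could give 18.6% of the AT2-like level in the control and 180% in the iPCKO. The iPCKO level there was thus not above the estimate, while 45.6 CPM were left in the control. In AT1-like cells the estimate was 733% and 2688% of the level, so it is too high for that type. No ratio remained with it subtracted, which does not show that the AT1-like level is free RNA. In gCap-like cells free RNA could give 71.2% and 171%, and in unsubtyped endothelial-like cells 14.4% and 83.1%. In venous-like, club-like and mast- or basophil-like cells it could give at most 2.88% of a level.

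As Ptgs2 is an immediate-early gene, 10 others of that class were set beside it (Fos, Fosb, Jun, Junb, Egr1, Atf3, Ier2, Dusp1, Zfp36 and Nr4a1). In the Hgf pair 0 of 160 ratios were past 2-fold higher and 12 lower (7.50%, near the 7.69% of all pairs), with a median of -0.07, whereas in the Bdnf pair 19 of 169 were higher (11.2%, where 4.05% of all pairs were) and 2 lower (1.18%, where 2.56% were), with a median of 0.53. Between the controls, 27 of 160 were higher in the Hgf control (16.9%, where 5.38% of all pairs were) and 0 lower (where 8.30% were), with a median of 0.56. By cell type, the summed CPM of these 10 genes had a log2 ratio in the Hgf pair of -0.71 in mast- or basophil-like cells (3 genes past 2-fold lower), -0.45 in AT2-like cells (2 lower) and 0.04 in venous-like cells (0 lower). In AT1-like cells of the Bdnf pair it was 0.79, with 4 genes past 2-fold higher, and in arterial-like cells, where the Ptgs2 ratio was largest, 0.51 with 0 genes past 2-fold. The part of tissue handling in the Ptgs2 values was not tested.

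**Figure D2:**
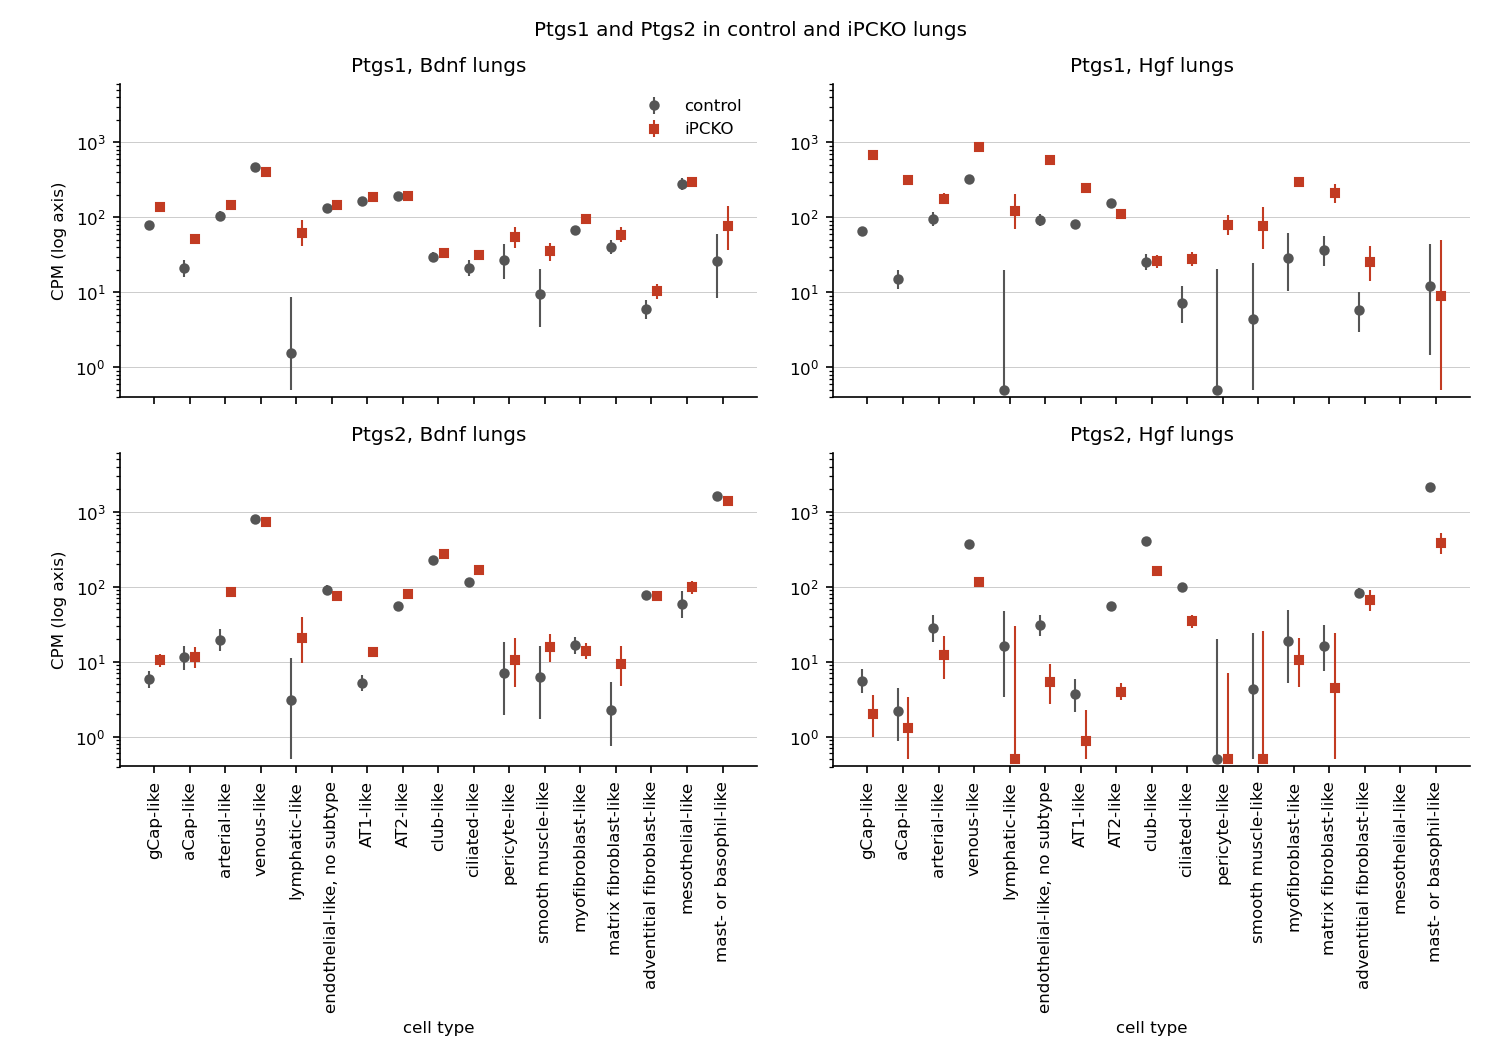
Ptgs1 (upper row) and Ptgs2 (lower row) in CPM on a log axis, by cell type, in control (grey circles) and iPCKO (red squares) lungs of the Bdnf and Hgf pairs, with bars for the 95% counting interval and 0 drawn at the foot of the axis. In the Hgf pair Ptgs1 of the iPCKO lies above its control in most types (gCap-like 66.2 and 674 CPM) and Ptgs2 below it (AT2-like 56.0 and 3.98 CPM), while in the Bdnf pair the same values are 79.3 and 138 CPM and 55.5 and 80.0 CPM.

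Ptges was lower in the Hgf iPCKO, as Ptgs2 was, while Hpgd was higher and Ptgis was higher in part of the cell types. Ptges was past 2-fold lower in 4 of 5 cell types, as in AT2-like cells (10.2 to 3.46 CPM, -1.56, -2.01 to -1.14) and club-like cells (9.99 to 1.04 CPM on 26 and 4 UMIs, -3.26). In matrix fibroblast-like cells, where it is highest, it was at 85.1 and 74.9 CPM. The Bdnf control held 3.61 CPM in AT2-like cells, so for Ptges it is the Hgf control that stood apart there. Ptgis was past 2-fold higher in 3 of 12 cell types, all of them epithelial types at or under 7.99 CPM. Free RNA of Ptgis, at 19.2 and 30.4 CPM, could give 233% and 164% of the AT1-like level, 106% and 94.0% of the AT2-like level and 51.5% and 49.5% of the ciliated-like level. In stromal types with high Ptgis the pair differed less: smooth muscle-like cells held 461 and 407 CPM, matrix fibroblast-like cells 591 and 590 CPM, and adventitial fibroblast-like cells 164 and 322 CPM (0.97, 0.71 to 1.23).

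Hpgd had a higher level in the Hgf iPCKO in the 15 cell types compared, with an interval above 0 in 13 and past 2-fold in 4. With free RNA subtracted, myofibroblast-like cells were at 52.4 and 52.2 CPM. In gCap-like cells the 4 lungs held 1179, 1051, 2014 and 2556 CPM in the order used above, and the ratio of the Hgf pair was 0.34 (0.31 to 0.38). In venous-like cells they held 1763, 1451, 2479 and 2996 CPM (0.27, 0.22 to 0.33). The controls differed more than the Hgf pair did in gCap-like cells, by 0.77 on the log2 scale. The ratios past 2-fold were outside the blood endothelium. Matrix fibroblast-like cells held 79.7 and 203 CPM (1.35). Lymphatic-like cells went from 27.2 to 238 CPM (5 and 29 UMIs, 3.13, 1.74 to 4.85), pericyte-like cells from 210 to 441 CPM (1.07) and AT1-like cells from 153 to 421 CPM (1.46). Free RNA of Hpgd, at 284 and 533 CPM, could give 55.5% and 54.4% of the AT1-like level and 22.7% and 8.02% of the lymphatic-like level. The estimate is too high for AT1-like cells, as it was above their Ptgs2 level. In pericyte-like cells free RNA could give 6.70% and 22.7%, and with it subtracted their ratio was 0.80, no longer past 2-fold.

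Of the prostaglandin E2 receptors in the Hgf lungs, Ptger3 was past 2-fold in 1 of 12 cell types (club-like, 5.12 to 11.6 CPM, 1.18, 0.28 to 2.21). Ptger4 in arterial-like cells was at 18.6, 25.0, 72.0 and 40.0 CPM in the 4 lungs, so that the Hgf control held the highest level (log2 ratio -0.85 in the Hgf pair, with an interval that ends at -0.22). Ptger2 reached the UMI minimum in myofibroblast-like cells only, with 52.5 and 35.4 CPM (-0.57, -1.63 to 0.59).

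The controls show how far control lungs lay apart for these genes. Between the Hgf control and the Bdnf control, 10 of 78 ratios were past 2-fold higher (12.8%) and 9 lower (11.5%), where 5.38% of all pairs were higher and 8.30% lower. Litter, allele and library cannot be told apart there. Ptgs1 was past 2-fold in 2 of the 12 types, ciliated-like and myofibroblast-like, both lower in the Hgf control. Ptges was higher in 5 of 6 types. Ptgs2 was lower in aCap-like, venous-like and unsubtyped endothelial-like cells.

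In the library labelled Bdnf iPCKO, 16 of 94 ratios were past 2-fold higher than in its control (17.0%) and 1 lower (1.06%), where 4.05% of all pairs were higher and 2.56% lower. More were lower with free RNA subtracted, as given at the end. With cell types taken from Leiden clusters instead, 10 ratios were past 2-fold, and 6 of the 17 were among them: Ptgs2 in AT1-like and arterial-like cells, Ptgis in arterial-like cells, Ptgs1 in aCap-like cells, and Ptger4 in adventitial and matrix fibroblast-like cells. Both cyclooxygenases were higher in some vessel types. Ptgs1 went from 79.3 to 138 CPM in gCap-like cells (0.80, 0.67 to 0.92) and from 20.9 to 51.3 CPM in aCap-like cells (1.30, 0.86 to 1.76). Lymphatic-like cells held 1 UMI in the control and 27 in the other library (1.55 and 62.7 CPM, 5.34, 2.74 to 10.70). Venous-like and AT2-like cells, the types highest in Ptgs1 beside mesothelial-like cells, held 466 and 402 CPM and 192 and 193 CPM. In pericyte-like cells Ptgs1 was at 26.9 and 54.5 CPM (15 and 41 UMIs), of which free RNA could give 34.4% and 81.6%. The ratio of 1.02 turned to -0.82 with it subtracted. In these cells of the library labelled Bdnf iPCKO the same estimate was 359% of the Ptgs2 level. It is therefore too high there, and the turned sign cannot be read as a result.

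Ptgs2 was past 2-fold higher in 3 of 14 types there and lower in none. In arterial-like cells it stood at 19.7 and 84.7 CPM (2.11, 1.59 to 2.66) and in AT1-like cells at 5.18 and 13.5 CPM (1.39). Free RNA could give 302% and 179% of that AT1-like level, and in the third type, smooth muscle-like cells (6.34 and 15.5 CPM), 104% and 93.1%, so that no ratio remained in either. The AT1-like shares exceed the level itself, so the estimate is too high there. Ptgis was higher in 4 of 14 types, among them arterial-like cells (107 and 222 CPM, 1.06, 0.82 to 1.31), while smooth muscle-like cells held 724 and 848 CPM. Ptger4 was higher in 3 of 6 types, as in adventitial fibroblast-like cells with 11.8 and 27.1 CPM (1.20, 0.84 to 1.56). Hpgd of the blood endothelium was close to or below its control, at 1763 and 1451 CPM in venous-like cells (-0.28, -0.33 to -0.23). It was past 2-fold higher in 2 of 16 types, lymphatic-like cells (21.7 and 92.9 CPM, 2.10, 1.19 to 3.09) and matrix fibroblast-like cells (25.1 and 82.6 CPM, 1.72), where the ratio was -0.04 with cell types taken from Leiden clusters. The 1 lower ratio was Ptges in pericyte-like cells, 24.2 and 9.31 CPM on 13.5 and 7 UMIs.

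**Figure D3:**
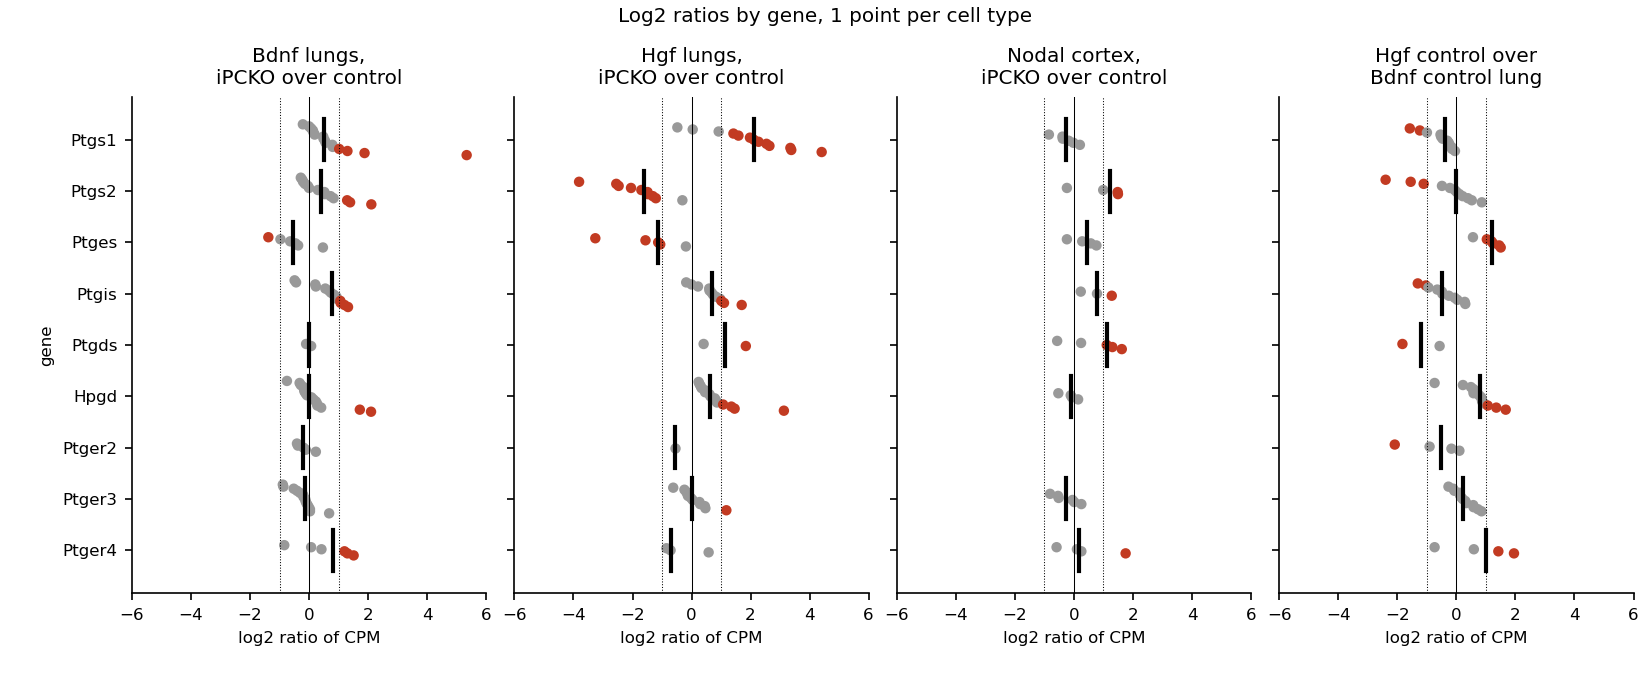
Log2 ratios of CPM for each gene (rows), 1 point per cell type, in the 3 pairs of iPCKO over control and between the 2 control lungs. Red points lie past 2-fold (dotted lines), black bars mark the median, and a count of 0 was taken as the floor of 3 UMIs; in the Hgf lungs Ptgs1 sits to the right (median 2.11) and Ptgs2 to the left (median -1.59).

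In the P12 cortex Ptgs1 was highest in microglia-like cells of the control, at 833 CPM, with perivascular macrophage-like cells at 257 CPM in 26 cells. Ptgs2, at 48.8 CPM, was highest in endothelial-like cells. Ptges stood at 57.7 CPM in fibroblast-like, 55.3 CPM in pericyte-like and 50.5 CPM in endothelial-like cells, and these 3 levels have overlapping intervals. Ptgis was highest in fibroblast-like cells (159 CPM), with endothelial-like cells at 82.2 CPM and smooth muscle-like cells at 62.3 CPM. Ptgds, which makes prostaglandin D2 and is also the carrier protein of the cerebrospinal fluid known as beta-trace, was at 2175 CPM in fibroblast-like cells and at or under 16.4 CPM in the others. Hpgd was at 349 CPM in perivascular macrophage-like and 280 CPM in microglia-like cells, and Ptger4 at 149 CPM in perivascular macrophage-like cells.

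Of 36 ratios in the cortex, 7 were past 2-fold higher in the Nodal iPCKO (19.4%) and 0 lower, where 2.67% of all pairs were higher and 3.01% lower. More were higher with a minimum of 5 UMIs, and some were lower with free RNA subtracted, as given at the end. As there is 1 library per genotype, none of these was tested. Ptgds in fibroblast-like cells was at 2175 CPM in the control and 6668 CPM in the iPCKO (2864 and 10341 UMIs, 1.62, 1.56 to 1.68) in 94 and 123 cells. The cell with the most held 776 of the 2864 UMIs in the control and 929 of the 10341 UMIs in the iPCKO. The share of fibroblast-like cells with a UMI was 45.7% (35.4 to 56.3) and 64.2% (55.1 to 72.7), at median depths of 13253 and 12243 UMIs, and 25.6% and 44.6% when thinned to 1500 UMIs. In microglia-like cells it was 1.16% and 2.30%, or 0.295% and 0.617% thinned. Free Ptgds RNA was at 144 and 501 CPM. The higher Ptgds of endothelial-like (1.84 to 4.51 CPM) and microglia-like cells (1.97 to 4.24 CPM) left no ratio once free RNA was subtracted. What remained was 0 CPM in endothelial-like cells of both libraries, and 0.443 and 0 CPM in microglia-like cells. The estimate was 424% and 609% of the endothelial-like level and 77.4% and 143% of the microglia-like level. Where it exceeds the level itself it is too high, counting error aside. The loss of these ratios therefore does not show that the Ptgds of these cells is free RNA.

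Ptgs2 was higher in endothelial-like cells (48.8 to 97.2 CPM, 0.99, 0.84 to 1.15) and in microglia-like cells (8.79 to 24.7 CPM, 1.49, 1.05 to 1.97). In neuron-like cells it was at 2.93 and 8.14 CPM on 5 and 45 UMIs, past 2-fold with an interval of the log2 ratio of 0.15 to 3.17. Microglia-like cells also held more Ptger4, 11.1 and 37.3 CPM on 62 and 360 UMIs (1.75, 1.35 to 2.16). A Ptger4 UMI was found in 3.93% of 865 control cells and 15.4% of 1390 iPCKO cells, or in 1.22% and 4.51% thinned. In endothelial-like cells, where Ptger4 was at 1.08 and 1.16 CPM, these shares were 0.999% and 1.04%, or 0.203% and 0.261% thinned. Free RNA could give 0.983% and 0.342% of the microglia-like level. Their Ptgs1 was at 833 and 735 CPM (-0.18, -0.24 to -0.13) and their Hpgd at 280 and 267 CPM, so the 2 enzymes for which these cells stand out were near their control level. Ptgis in smooth muscle-like cells was at 62.3 and 151 CPM on 31 and 77 UMIs (1.28, 0.66 to 1.93), and Ptges in endothelial-like cells at 50.5 and 85.8 CPM (0.76, 0.61 to 0.92). The immediate-early genes had a median log2 ratio of 0.21 in the cortex, with 7 of 80 ratios past 2-fold higher (8.75%, where 2.67% of all pairs were) and 1 lower (1.25%, where 3.01% were). Their summed CPM had a log2 ratio of -0.06 in endothelial-like and -0.25 in microglia-like cells, with 0 genes past 2-fold in either. It was 0.18 in neuron-like cells (1 higher, 1 lower) and 0.81 in astrocyte-like cells (3 higher).

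**Figure D4:**
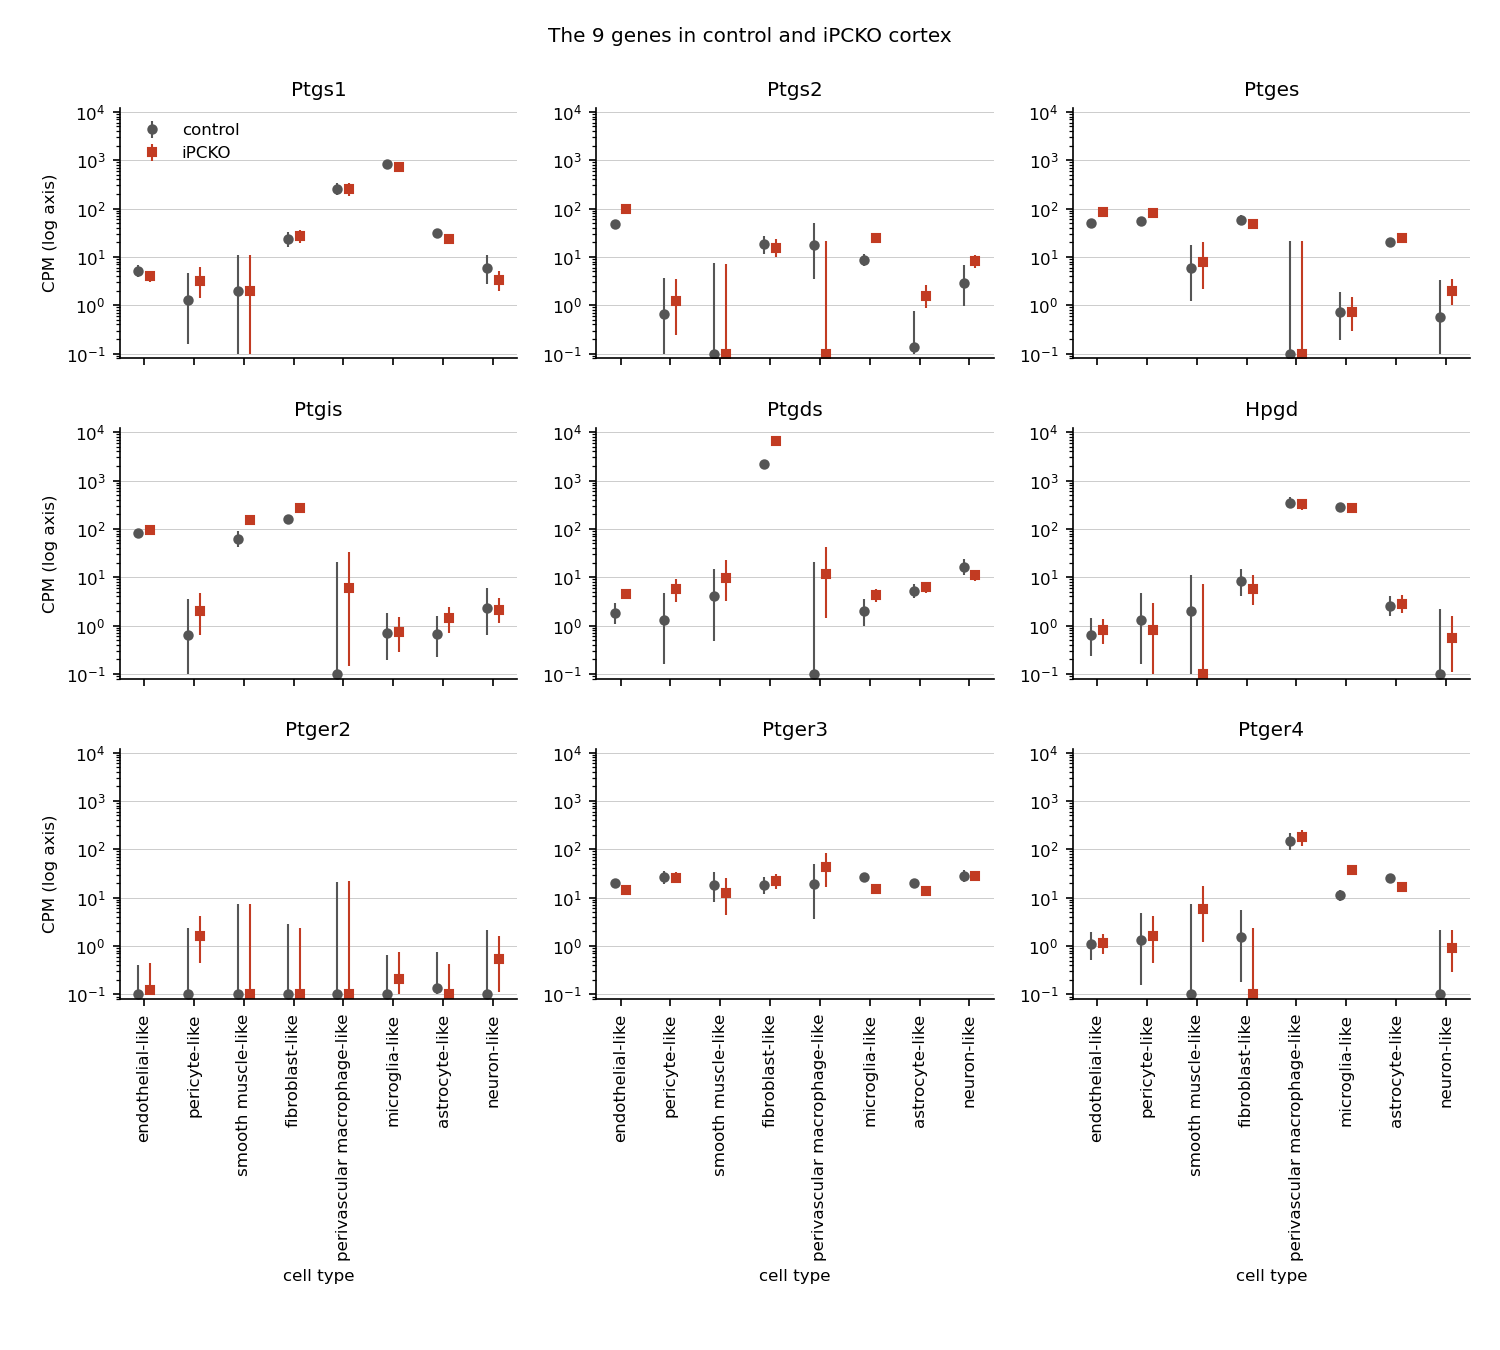
The 9 genes in the cortex in CPM on a log axis, by cell type, in the Nodal control (grey circles) and Nodal iPCKO (red squares), with bars for the 95% counting interval and 0 drawn at the foot of the axis. Ptgds stands out in fibroblast-like cells (2175 and 6668 CPM) and Ptgs1 in microglia-like cells (833 and 735 CPM); Ptger2 is at or near 0 in all types.

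Lung and cortex controls were set side by side in like cell types. Tissue, age and preparation cannot be told apart in this comparison. Against the Bdnf control lung, 6 of 22 ratios of the cortex were past 2-fold higher (27.3%) and 11 lower (50.0%), where 17.6% of all pairs were higher and 19.7% lower. Against the Hgf control lung, 5 of 20 were higher (25.0%) and 10 lower (50.0%), where 17.7% and 16.8% of all pairs were. Both rows of ratios share the cortex control.

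The brain endothelium held almost none of the clearance gene of the lung endothelium. Hpgd was at 1167 CPM in endothelial-like cells of the Bdnf control lung, at 1781 CPM in those of the Hgf control lung, and at 0.648 CPM in those of the cortex, on 6 UMIs in 801 cells and below the 3.39 CPM that free RNA could give. The log2 ratios were -10.82 (-12.26 to -9.69) and -11.42 (-12.87 to -10.30). In pericyte-like cells it was at 115, 210 and 1.30 CPM in that order. Ptgs1 of endothelial-like cells was at 149, 91.9 and 5.18 CPM. The estimate of free RNA in the cortex cells was 112% of their Ptgs1 level, 424% of their Ptgds level and 524% of their Hpgd level. It is therefore too high there, and it does not show that the Ptgs1 or Hpgd level is free RNA. Ptges went the other way, with 0.357 and 0.437 CPM in lung and 50.5 CPM in cortex endothelial-like cells (8, 5.5 and 468 UMIs, log2 ratios 7.15 and 6.85). Ptgis of smooth muscle-like cells was at 724, 461 and 62.3 CPM.

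The other genes of the pathway were counted from lists of known members. Receptors outside the 9 genes (Ptger1, Ptgdr, Ptgdr2, Ptgfr, Ptgir and Tbxa2r) were past 2-fold lower in 12 of 15 ratios of the Hgf pair (80.0%, where 7.69% of all pairs were lower) and higher in 0, with a median of -2.11. These ratios come from 4 of the 6 receptors, as the others held too few UMIs. In the Bdnf pair 0 of 29 were higher, where 4.05% of all pairs were, and 4 lower (13.8%, where 2.56% were). Of these receptors Tbxa2r, the thromboxane receptor, was at 89.6 and 13.8 CPM in aCap-like cells of the Hgf pair (286 and 42 UMIs, -2.70, -3.21 to -2.23), where the Bdnf pair held 105 and 56.2 CPM. Of the phospholipases, 2 of 29 ratios were higher (6.90%, where 7.41% of all pairs were) and 6 lower (20.7%, where 7.69% were) in the Hgf pair. Pla2g4a, the cytosolic phospholipase that frees arachidonic acid, was at 119 and 23.4 CPM in venous-like cells of the Hgf pair (-2.34, -2.79 to -1.92) and at 138 and 61.9 CPM in those of the Bdnf pair (-1.16, -1.37 to -0.96). In the Bdnf pair 10 of 54 phospholipase ratios were higher (18.5%, where 4.05% of all pairs were) and 3 lower (5.56%, where 2.56% were). Of those 10, 8 were Pla2g1b, a secreted enzyme that was at 339 CPM in AT2-like cells of the control and at 2.76 to 28.3 CPM in those 8 cell types. Its free RNA was at 81.8 and 89.9 CPM in the Bdnf pair.

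Other synthases had 0 of 54 ratios higher and 4 lower (7.41%) in the Hgf pair, near the 7.69% of all pairs that were lower there. In the Bdnf pair they had 0 of 69 higher, where 4.05% of all pairs were, and 1 lower (1.45%, where 2.56% were). Genes of breakdown and transport had 4 of 54 higher (7.41%, the same share as over all pairs) and 8 lower (14.8%, where 7.69% of all pairs were) in the Hgf pair. The transporter Slco2a1 was at 1545 and 2350 CPM in gCap-like and 1470 and 1927 CPM in aCap-like cells of that pair, and at 102 and 118 CPM in endothelial-like cells of the cortex pair. Genes of the leukotriene branch had 0 of 32 higher and 8 lower (25.0%) in the Hgf pair, among them Alox5ap in arterial-like cells (141 to 24.3 CPM, -2.54, -3.30 to -1.85), which was also lower in the Bdnf pair (39.9 to 8.68 CPM, -2.20). In the cortex, where 2.67% of all pairs were higher and 3.01% lower, each of these 5 lists had at most 1 ratio past 2-fold in either direction. The other receptors had 1 of 10 higher and 1 lower (10.0% each). The leukotriene branch had 1 of 23 in each direction (4.35%), and breakdown and transport 1 of 31 (3.23%). Phospholipases had 1 of 19 higher (5.26%) and 0 lower, and other synthases 0 of 41 in either direction.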

How the data were processed

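Cells were captured and barcoded on the BD Rhapsody platform (2 mice per library). The deposited matrices hold estimated counts, the UMIs per gene and barcode that the authors made with STAR 2.7.10a on GRCm39 per the labels. Reads shared between genes are split there, so that 8.5% to 9.95% of entries are fractional (5.05% to 11.6% of the UMIs of Ptger3). The authors deposited unfiltered barcodes. Here, barcodes with at least 1500 UMIs (700 in the Hgf lungs) were given a cell type from marker genes, and those with markers of 2 types were left out. For each cell type of at least 20 cells in a library the UMIs were added up and divided by all UMIs of those barcodes (CPM). Intervals are exact Poisson (CPM), conditional exact binomial (ratios) and Clopper-Pearson (shares). With 1 library per genotype no test between genotypes was run. A 0 was set to 3 UMIs in ratios. The 9 genes, the lists and the rule for named genes (the 9 genes, listed genes that reach 20 UMIs over the pair of libraries, and the 3 genes most like each of the 9) were chosen with earlier results of these data known. The genes most like Ptgs1 are not reported here. Alternatives were a doubled UMI minimum, a stricter marker gate, Leiden clusters (leidenalg 0.10.2), removal of doublets or of barcodes of high mitochondrial share, rounding, other size factors, a minimum of 5 UMIs and, added after seeing the data, subtraction of free RNA. Interval code was tested on simulated data. Python 3.11.15, numpy 2.4.6 and scipy 1.17.1 were used.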

Additional observations from a re-analysis of the deposited data

Results flagged for a closer look

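In the Bdnf and Hgf lungs, 73 ratios of the 9 genes could be compared between the pairs. Flagged were 7 with intervals on opposite sides of 0 and a ratio past 2-fold in either pair or both. Opposite intervals short of 2-fold in both pairs, as for Hpgd in venous-like cells, are not among the 7. The difference between the pairs was not tested, as each has 1 library per genotype. Ptgs2 makes up 6 of the 7: its log2 ratio of iPCKO over control was -3.81 in AT2-like cells of the Hgf pair and 0.53 in those of the Bdnf pair, and -1.21 and 2.11 in arterial-like cells. In AT1-like cells it was -2.05 and 1.39, in ciliated-like cells -1.49 and 0.52, in club-like cells -1.31 and 0.30, and in gCap-like cells -1.48 and 0.83. Free RNA was estimated above the Ptgs2 level in AT1-like cells of the 4 lungs, an estimate too high for that type. In gCap-like cells it could give 71.2% and 171% of it in the Hgf control and iPCKO and 127% and 162% in the Bdnf pair, and in AT2-like cells 18.6% and 180% in the Hgf pair and 14.3% and 17.5% in the Bdnf pair. In arterial-like, ciliated-like and club-like cells it could give at most 20.4%. The last is Ptgs1 in venous-like cells, with 1.42 in the Hgf pair and -0.21 in the Bdnf pair.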

How the results depend on the processing

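No paired analysis was possible because each genotype has 1 library, and for the same reason no library could be left out. In the Bdnf pair 17 ratios were past 2-fold, 1 of them lower. With the UMI minimum doubled, and with the stricter gate, 2 were lower. With Leiden clusters there were 10, of which 10 were higher and 0 lower, and 6 of these were among the 17. With a minimum of 5 UMIs there were 26, of which 2 were lower, and with free RNA subtracted, which was chosen after seeing the data, 7 were lower. In the Nodal pair 7 were higher and 0 lower; with 5 UMIs 15 were past 2-fold and 15 of them higher, with Leiden clusters 1 was lower and with free RNA subtracted 4 were. Between the controls 19 were past 2-fold, 9 of them lower, and with 5 UMIs 29, 14 of them lower. A minimum of 5 UMIs lets in ratios on fewer UMIs, and the share over all genes was not computed under any alternative. The counts under alternatives therefore show how the processing moves them and are not a result about the 9 genes. Counts of the Hgf pair stayed within 1.5 times under every alternative run. With Leiden clusters the ratio turned in matrix fibroblast-like cells for Hpgd (-0.04 in the Bdnf pair, -1.17 between the controls) and in AT2-like cells for Ptgis (0.55 between the controls). With free RNA subtracted it turned for Ptgs1 in pericyte-like cells of the Bdnf pair (-0.82), on an estimate above the Ptgs2 level of the same cells. No ratio was left for 5 ratios of the Bdnf pair, 2 of the Hgf pair, 3 of the Nodal pair and 3 between the controls. There, 3 UMIs or fewer remained in both libraries or the floor of 3 UMIs in one lay above the other. The causes were not tested. Doublet calling marked 0 to 3 barcodes in each lung, too few to be used there, and removed 21 and 39 in the cortex. Ratios on few UMIs are limited by depth, as their intervals show.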

Other observations

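The genes whose level over cell types was most like that of each of the 9 genes were sought among 10774 genes. The measure was Pearson's r of log2(CPM + 1) over 41 points, each a cell type in 1 of the 3 control libraries. For 16 lung cell types both control lungs give a point. These points share 3 libraries, so r is a description. The profile of Hpgd was most like that of H2-Q7 (0.895), Parp14 (0.894) and H2-K1 (0.871). Ptgis was most like Eln (0.868), which encodes elastin, Casp12 (0.847) and Mfap5 (0.835). Ptgds was most like Slc22a6 (0.879), Slc26a7 (0.842) and Crabp2 (0.816), and Ptger2 most like Fgf7 (0.833), Adamtsl2 (0.831) and Igsf10 (0.784). The r of the nearest gene was 0.748 for Ptges (Nt5dc2), 0.745 for Ptger3 (Socs1), 0.742 for Ptger4 (Tnfrsf1b) and 0.731 for Ptgs2 (Hdc, the histamine-forming enzyme of mast cells).

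Other listed genes of the cortex are given as values, chosen after they were seen. Hpgds, the hematopoietic prostaglandin D synthase, was at 784 CPM in microglia-like and 549 CPM in perivascular macrophage-like cells, and at 659 and 424 CPM in the Nodal iPCKO. Tbxas1, the thromboxane synthase, was at 104 and 85.8 CPM in these types of the control and at 77.0 and 76.6 CPM in the iPCKO. Tbxa2r was at 336 CPM in control pericyte-like cells of the cortex and at 322 CPM in those of the iPCKO.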
